A study of Mus musculus with 16 samples.

Results

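The mTOR and MNK pathway genes described here were 10 genes chosen by symbol out of the 53465 in the deposited table: the kinase gene Mtor, the scaffold genes Rptor and Rictor, the GTPase gene Rheb, its inhibitors Tsc1 and Tsc2, the S6 kinase genes Rps6kb1 and Rps6kb2, and the MNK genes Mknk1 and Mknk2. All 10 symbols were found. Their reads were followed in lumbar dorsal root ganglia (DRG, L3 to L5), which hold the cell bodies of sensory neurons, and in the dorsal part of the matching lumbar spinal cord. Female C57BL/6J mice had bilateral spared nerve injury (SNI) at 8 weeks of age, in which 2 of the sciatic nerve branches (tibial and common peroneal) were tied and cut while the sural branch was left, or a sham operation that exposed the nerve and left its branches intact. Tissue was taken 30 days later. The groups were DRG of SNI mice, DRG of sham mice, spinal cord of SNI mice and spinal cord of sham mice, with 2 lysates each, and every lysate pooled the tissue of 10 mice. Each lysate gave a poly(A)+ mRNA library and a library of ribosome footprints, the mRNA fragments that ribosomes protect from nuclease, for 16 libraries in all. Differences between single animals cannot be seen in pools, and the p-values below rest on the spread between pools, not between mice. With 2 pools per group, the main test estimated the spread of a gene partly from that of the other genes. Tests between the sham tissues also drew on the spread of the SNI pools.

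mTOR is a protein kinase that couples nutrients and growth factors to protein synthesis. Bound to RAPTOR (encoded by Rptor) it forms mTORC1, which phosphorylates the S6 kinases and the 4E-BP repressors of the cap-binding protein eIF4E. Bound to RICTOR it forms mTORC2, which phosphorylates AKT. The GTPase RHEB activates mTORC1 at the lysosome, and the complex of TSC1 and TSC2 turns RHEB off. The MNK kinases are activated by ERK and p38 and phosphorylate eIF4E itself. Both branches control which mRNAs are translated in nociceptors and in the dorsal horn, and both have been studied as targets in pain.

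The 16 libraries held between 6898056 and 28553113 reads in genes. Injury was visible in the marker Atf3, a transcription factor induced by axotomy, whose mRNA was at 103 and 99.5 counts per 1000000 reads (CPM, scaled between libraries by TMM) in SNI DRG, against 13.0 and 14.5 CPM in sham DRG. Sprr1a, a gene of regenerating axons, was at 245 and 253 CPM in SNI DRG, against 13.0 and 13.2 CPM in sham DRG. The tissues carried their own markers: the 8 sensory neuron markers summed to 5624 to 5785 CPM in the DRG mRNA libraries, against 86.7 to 106 CPM in the spinal cord mRNA libraries. Cell type markers also differed between SNI and sham DRG. The mRNA of 10 skeletal muscle markers summed to 150 and 152 CPM in SNI DRG, against 55.0 and 57.4 CPM in sham DRG, and 9 of the 10 rose. The 8 microglia and macrophage markers summed to 170 and 168 CPM in SNI DRG, against 117 and 114 CPM in sham DRG, and 6 of the 8 rose. Other lists were lower. Satellite glia markers summed to 844 and 844 CPM in SNI DRG, against 1003 and 994 CPM in sham DRG, although only 2 of the 5 fell and 1 rose. Astrocyte markers summed to 135.5 and 127.9 CPM in SNI DRG, against 173 and 169 CPM in sham DRG (4 of 6 fell), oligodendrocyte markers to 111 and 108 CPM, against 134 and 129 CPM (3 of the 5 tested fell), and spinal cord neuron markers to 29.2 and 27.8 CPM, against 42.1 and 38.4 CPM (5 of the 7 tested fell). Among the other 6 lists, sensory neuron markers split (3 of 8 rose and 5 fell), 5 of 6 fibroblast and 3 of 5 endothelial markers rose, 4 of 5 erythroid markers fell, Schwann cell markers split evenly (1 of 5 each way) and no adipocyte marker passed. No listed marker was at 0 in a DRG mRNA library. In bulk tissue, fewer cells of a type and less RNA per cell cannot be told apart, and the part of these shifts in the DRG differences below was not tested.

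The members lay on 8 mouse chromosomes (GRCm38, GENCODE M21). Mtor spanned chr4:148448611-148557683 on the plus strand, and Mknk1 lay on the same chromosome at chr4:115839198-115879250, also on the plus strand. Rptor lay at chr11:119602905-119899576 (plus strand) and Rps6kb1 at chr11:86498871-86544805 (minus strand). Rictor lay at chr15:6708379-6800401 (plus), Rheb at chr5:24802823-24842624 (minus), Tsc1 at chr2:28641228-28691167 (plus), Tsc2 at chr17:24595816-24632630 (minus), Rps6kb2 at chr19:4153991-4163354 (minus) and Mknk2 at chr10:80665327-80678112 (minus). Mtor, Rictor, Rheb, Tsc1 and Mknk2 shared no exonic base with another gene. Tsc2 shared 693 exonic bases with Pkd1 on the other strand, Mknk1 shared 260 with an antisense transcript, Rps6kb1 shared 155 with Rnft1 and Rptor shared 84 with the antisense gene Rptoros. Rps6kb2 shared 1224 exonic bases with Ptprcap on the other strand, 23.7% of its 5167 exonic bases, and the deposited table gave it an exonic length of 2445 bases. The paper describes its sequencing as not strand-specific, and the strand setting of the counting is not given in the sources used here. The Rps6kb2 values are therefore uncertain. The other members that share exonic bases, in smaller parts, carry the same limit.

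RefSeq promoter windows (GRCm38.p6, 250 bases before to 50 bases after the RefSeq start) were found for 9 of the 10 members. Those of the 3 members whose mRNA changed in DRG are shown here, 5′ to 3′ along the gene. Capitals mark the letters CACGTG, the E-box bound by bHLH factors such as TFEB and MYC.
Mknk2, minus strand, chr10:80676244-80676543: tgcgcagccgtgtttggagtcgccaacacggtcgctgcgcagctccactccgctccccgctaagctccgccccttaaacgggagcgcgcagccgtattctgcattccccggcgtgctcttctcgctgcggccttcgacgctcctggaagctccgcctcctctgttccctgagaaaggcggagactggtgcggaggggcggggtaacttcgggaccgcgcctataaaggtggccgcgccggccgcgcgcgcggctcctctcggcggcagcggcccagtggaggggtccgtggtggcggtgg
Rheb, minus strand, chr5:24842312-24842611: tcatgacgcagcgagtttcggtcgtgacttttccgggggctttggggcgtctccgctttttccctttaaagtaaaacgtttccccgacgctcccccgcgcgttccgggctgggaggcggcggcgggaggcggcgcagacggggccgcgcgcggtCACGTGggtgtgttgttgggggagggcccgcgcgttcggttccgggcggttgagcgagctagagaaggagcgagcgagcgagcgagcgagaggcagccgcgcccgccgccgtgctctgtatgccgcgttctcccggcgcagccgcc
Rps6kb1, minus strand, chr11:86544758-86545057: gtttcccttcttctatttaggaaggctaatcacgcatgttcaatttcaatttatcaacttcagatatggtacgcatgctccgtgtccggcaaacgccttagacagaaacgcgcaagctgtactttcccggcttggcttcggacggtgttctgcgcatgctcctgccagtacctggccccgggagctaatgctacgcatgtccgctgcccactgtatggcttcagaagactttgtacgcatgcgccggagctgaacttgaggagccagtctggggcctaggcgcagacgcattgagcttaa
The Rheb window held the E-box letters from position -96 relative to its RefSeq start. Both Mknk1 windows held the same E-box, at -70 or -93 according to the start used. The Rheb and Mknk2 windows lay wholly inside the GENCODE spans given above, which begin at 24842624 and 80678112 on the minus strand. Their RefSeq starts thus differ from the GENCODE gene starts, and the Rheb E-box lay inside the GENCODE gene. No other member's window held them. The letters CACGTG, searched on both strands, occurred in 7.15% of the 32851 RefSeq promoter windows. The AP-1 letters TGANTCA (7.81% of windows) and the CRE letters TGACGTCA (1.79% of windows), which ATF and JUN family factors bind, were in none of the members' windows, on either strand. These matches describe letters only and were not tested as binding sites.

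Levels in the uninjured tissues were compared per length, as mRNA CPM per kilobase of exon and footprint CPM per kilobase of the longest coding sequence, with all 8 libraries of an assay scaled together. Rheb was the most abundant member in both tissues, at 20.3 ± 0.183 mRNA CPM per kilobase in sham DRG and 15.5 ± 0.0397 in sham spinal cord (SD, n = 2). Mknk2 came next in sham DRG at 13.3 ± 0.241 mRNA CPM per kilobase, followed by Rps6kb1 at 8.29 ± 0.115. Mtor, at 6.64 ± 0.275, and Tsc2, at 6.36 ± 0.128, overlapped in their DRG values. Rps6kb2 was last in both tissues, at 1.21 ± 0.206 mRNA CPM per kilobase in sham DRG and 1.47 ± 0.000359 in sham spinal cord. By footprints per coding kilobase Rheb was again first in both tissues, at 278 ± 2.20 CPM in sham DRG and 215 ± 8.36 CPM in sham spinal cord. Mtor followed in DRG at 33.1 ± 0.134 footprint CPM per kilobase, ahead of Mknk2 at 30.4 ± 0.0911. In spinal cord the second place was held by Rptor at 30.0 ± 0.154 footprint CPM per kilobase, with Mtor at 27.2 ± 0.350.

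**Figure D1:**
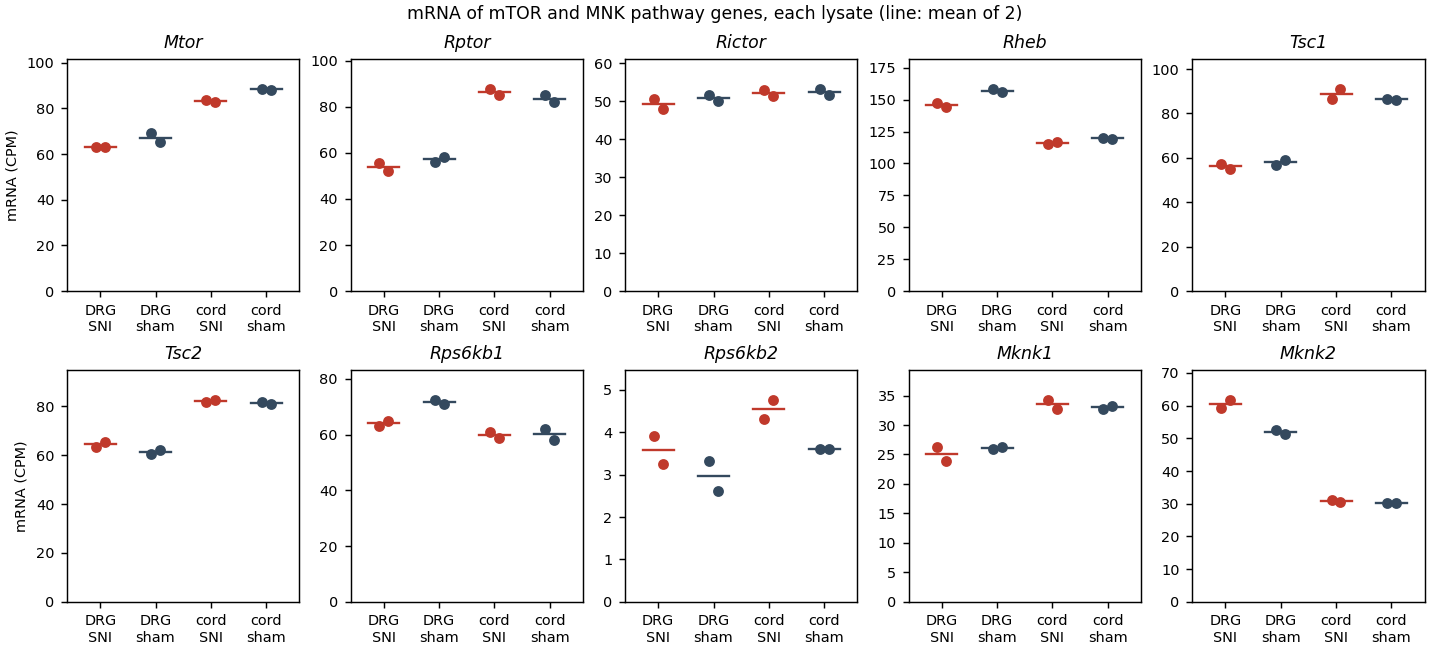
mRNA level of each of the 10 genes in each lysate, in CPM scaled over the 8 mRNA libraries (y axes start at 0). Points are lysates, lines are the mean of 2, red is SNI and dark blue is sham. Mknk2 was higher in SNI DRG, at 59.3 and 61.7 CPM, than in sham DRG, at 52.5 and 51.2 CPM, and both exceeded all spinal cord lysates.

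In DRG, 3 of the 10 members changed at the mRNA level after SNI, 1 rising and 2 falling, all by less than 1.2-fold. Among all 14494 genes tested 15.9% rose and 17% fell (2308 and 2467 genes, against 3072 and 1781 with library sizes alone), so the members' share of calls was near that background. Mknk2 mRNA rose: it was at 58.2 and 60.6 CPM in SNI DRG, against 51.6 and 50.3 CPM in sham DRG. The groups did not overlap, and the log2 fold change was 0.22 (SE 0.0389, adjusted p = 3.15e-05). Rps6kb1, which encodes S6 kinase 1, fell: its mRNA was at 62.0 and 63.7 CPM in SNI DRG, against 71.2 and 69.9 CPM in sham DRG (log2 fold change -0.17, SE 0.0352, adjusted p = 0.000239). Rheb mRNA also fell, to 144 and 142 CPM in SNI DRG, against 155 and 153 CPM in sham DRG (log2 fold change -0.11, SE 0.0267, adjusted p = 0.0016). The groups did not overlap in either gene. The DESeq2 test ended the calls of Rps6kb1 (adjusted p = 0.0536) and Rheb (adjusted p = 0.0649), and a fixed coefficient of variation of 0.1 between pools ended all 3 (adjusted p = 0.88 to 0.999).

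The remaining members did not pass the test for DRG mRNA. Mtor was at 62.0 and 61.9 CPM in SNI DRG, against 67.9 and 64.0 CPM in sham DRG, and the difference of -0.09 on the log2 scale (SE 0.0366) just missed the threshold (adjusted p = 0.0518). Its value rested on the sham lysates: it was -0.13 without sham replicate 2 (adjusted p = 0.0241) and -0.05 without sham replicate 1 (adjusted p = 0.558), and DESeq2 gave an adjusted p of 0.456. The scaffold genes were each lower in mean: Rptor differed by -0.08 (SE 0.0402, adjusted p = 0.114) and Rictor by -0.04 (SE 0.0414, adjusted p = 0.488). Rptor was at -0.13 without SNI replicate 1 (adjusted p = 0.0431) and at -0.04 without SNI replicate 2 (adjusted p = 0.547), and DESeq2 gave 0.533. The RHEB inhibitors differed in sign, Tsc1 by -0.04 (adjusted p = 0.485) and Tsc2 by 0.07 (adjusted p = 0.173). Mknk1, the paralog of Mknk2, had mRNA at 25.8 and 23.5 CPM in SNI DRG, against 25.4 and 25.8 CPM in sham DRG, and these groups overlapped (log2 difference -0.05, 95% interval -0.17 to 0.08). Rps6kb2 had 111 and 72 mRNA reads in SNI DRG, against 65 and 46 in sham DRG (log2 difference 0.28, SE 0.177, adjusted p = 0.239). The 10 members had a median difference of -0.05 on the log2 scale, against 0.00 over all genes tested.

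Within each library the reads of Mknk2 over those of Mknk1 gave a ratio that needs no scaling. For mRNA it was 2.25 and 2.58 in SNI DRG, against 2.03 and 1.95 in sham DRG, so that the SNI lysates were higher. In footprints the ratio was 1.42 and 1.64 in SNI DRG, against 1.43 and 1.36 in sham DRG, and these overlapped. In spinal cord the mRNA ratio was 0.913 and 0.934 in SNI lysates, against 0.921 and 0.91 in sham lysates. With 2 samples against 2, an exact permutation test cannot go below p = 0.333, and the ratios are given as a description.

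**Figure D2:**
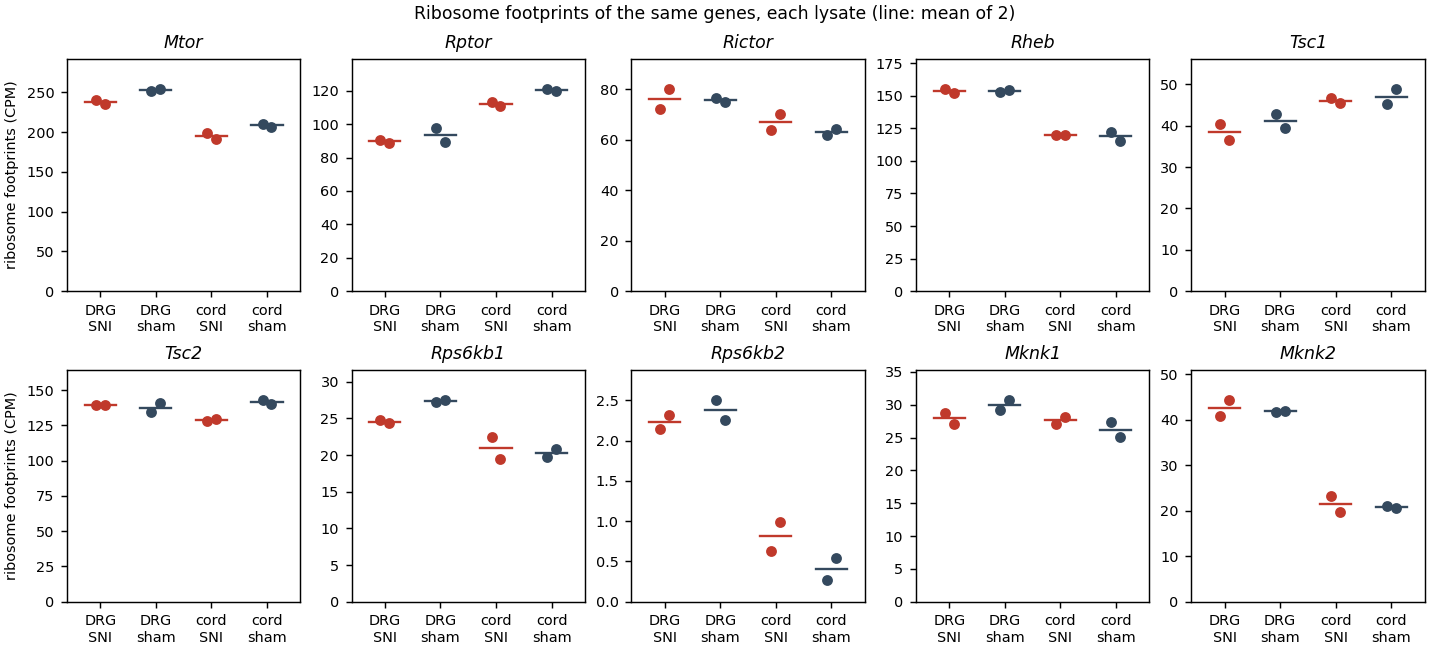
Ribosome footprints of each gene in each lysate, in CPM scaled over the 8 footprint libraries (y axes start at 0). Points are lysates, lines are the mean of 2, red is SNI and dark blue is sham. Rps6kb2 had few footprints anywhere, with 2 to 7 reads per spinal cord library.

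None of the 10 members changed in DRG footprints after SNI, where 8.4% of the 13038 genes tested rose and 8.28% fell by edgeR (1095 and 1080 genes, against 1354 and 829 with library sizes alone), and 2 of the 10, Mtor and Rps6kb1, had an unadjusted p under 0.05, as did 27.2% of all genes tested. Mknk2 had footprints at 39.7 and 43.0 CPM in SNI DRG, against 40.5 and 40.6 CPM in sham DRG. The rise of its mRNA was thus not seen in footprints, for which the log2 difference was 0.04 (95% interval -0.08 to 0.16, adjusted p = 0.731). Rheb footprints were at 151 and 147 CPM in SNI DRG, against 148 and 149 CPM in sham DRG (log2 difference 0.00, 95% interval -0.07 to 0.07). Rps6kb1 footprints, in contrast, differed about as much as its mRNA: they were at 24.1 and 23.6 CPM in SNI DRG, against 26.5 and 26.6 CPM in sham DRG. That log2 difference of -0.16 did not pass (SE 0.0795, adjusted p = 0.178). Mtor footprints were at 233 and 228 CPM in SNI DRG, against 245 and 245 CPM in sham DRG (log2 difference -0.09, SE 0.0371, adjusted p = 0.0885). The other 6 members differed by -0.12 (Mknk1) to 0.03 (Rictor), with adjusted p of 0.306 to 0.953. Mtor passed when both tissues entered 1 fit (adjusted p = 0.0228), and not with DESeq2 (0.372), library sizes alone (0.238) or no filter (0.248), or without any 1 lysate (0.156 to 0.438).

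Translation efficiency (TE) was taken as the footprint CPM over the mRNA CPM of the same lysate, on a log2 scale, and its test asked whether surgery changed footprints and mRNA unequally. None of the 10 members changed in DRG TE, where 4.22% of the 12710 genes tested rose and 3.21% fell by edgeR. Limma on log2 TE called none of the 12710 genes (1604 at an unadjusted p under 0.05). At an unadjusted p under 0.05 the edgeR test held 2 members, Mknk2 and Rheb, and 19.4% of all genes tested. The log2 TE of Mknk2 was -0.55 and -0.50 in SNI DRG, against -0.35 and -0.31 in sham DRG, a difference of -0.19 (SE 0.0742, adjusted p = 0.0921). For Rheb it was 0.06 and 0.06 in SNI DRG, against -0.07 and -0.04 in sham DRG, a difference of 0.11 (SE 0.0474, adjusted p = 0.156). In both genes the TE values lay on the side opposite to the mRNA change, without overlap between the groups, and neither difference passed the test. As TE divides by mRNA, nearly level footprints place it on that side, so its sign is not a separate result. Mtor TE was nearly the same, with a difference of 0.00 (95% interval -0.09 to 0.08), and so was that of Rps6kb1 (0.00, 95% interval -0.17 to 0.17).

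**Figure D3:**
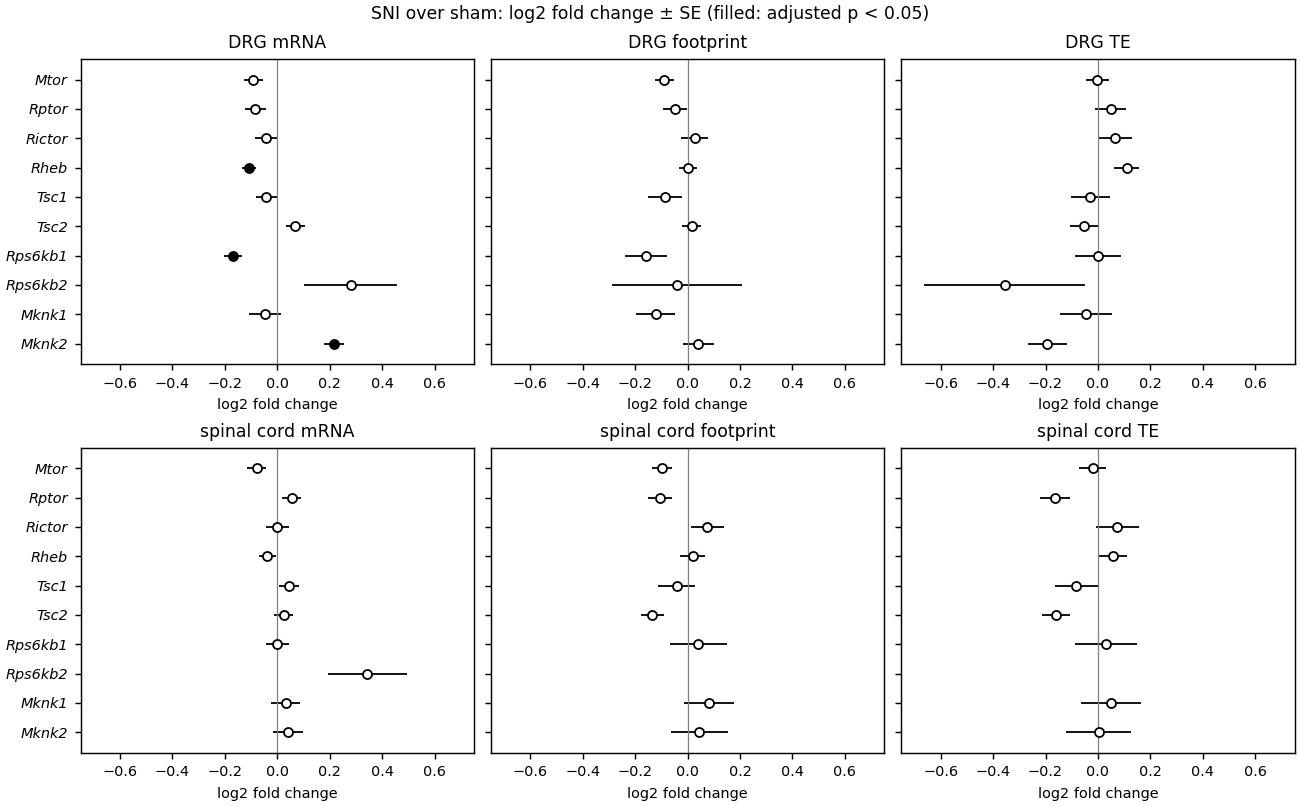
log2 fold change of SNI over sham for each gene, with bars of 1 SE, for mRNA, footprints and TE in DRG (top) and spinal cord (bottom). Filled points have an adjusted p under 0.05 and are only Mknk2, Rheb and Rps6kb1 in DRG mRNA. Rps6kb2 has no point for spinal cord footprints and TE because it had too few reads.

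In spinal cord, none of the 10 members changed in mRNA, against 2.09% of the 14723 genes tested that rose and 1.96% that fell by edgeR, and 2 members, Mtor and Rps6kb2, had an unadjusted p under 0.05, as did 17% of all genes tested. Mknk2 mRNA was at 31.9 and 31.3 CPM in SNI spinal cord, against 30.6 and 30.8 CPM in sham spinal cord (log2 difference 0.04, 95% interval -0.07 to 0.16). Rps6kb1 mRNA was at 62.3 and 60.2 CPM in SNI spinal cord, against 62.9 and 59.4 CPM in sham spinal cord, with a difference of 0.00 (95% interval -0.09 to 0.09). Mtor was again lower in both SNI lysates, at 85.3 and 84.4 CPM, than in the sham lysates, at 89.4 and 89.9 CPM (log2 difference -0.08, SE 0.0366, adjusted p = 0.245). Rps6kb2 was at 4.42 and 4.86 CPM in SNI spinal cord, against 3.64 and 3.66 CPM in sham spinal cord (log2 difference 0.34, SE 0.151, adjusted p = 0.213). The other 6 members differed by -0.04 (Rheb) to 0.05 (Rptor) on the log2 scale.

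None of the 9 members tested changed in spinal cord footprints, where 1.21% of the 12018 genes tested rose and 1.03% fell by edgeR, and 3 members, Mtor, Rptor and Tsc2, had an unadjusted p under 0.05, as did 13.3% of all genes tested. Tsc2 footprints were at 132 and 133 CPM in SNI spinal cord, against 148 and 144 CPM in sham spinal cord (log2 difference -0.14, SE 0.0433, adjusted p = 0.128). Rptor footprints were at 116 and 114 CPM in SNI spinal cord, against 125 and 124 CPM in sham spinal cord (log2 difference -0.11, SE 0.046, adjusted p = 0.303). Mtor footprints were at 204 and 196 CPM in SNI spinal cord, against 217 and 213 CPM in sham spinal cord (log2 difference -0.10, SE 0.0376, adjusted p = 0.219). Mtor thus lay lower in both SNI lysates than in both sham lysates in mRNA and footprints of both tissues. None of these differences passed the main test. How often other genes showed such an order was not counted, and mRNA and footprints came from the same lysates. In DRG mRNA 41.1% of all genes tested had an unadjusted p under 0.05 by edgeR.

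None of the 9 members tested changed in spinal cord TE, where 0.169% of the 11865 genes tested rose and 0.0843% fell by edgeR. Unadjusted p values under 0.05 were found for 2 members, Rptor and Tsc2, and for 7.04% of all genes tested. The log2 TE of Tsc2 was 0.66 and 0.66 in SNI spinal cord, against 0.84 and 0.81 in sham spinal cord (difference -0.16, SE 0.0551, adjusted p = 0.407). That of Rptor was 0.38 and 0.39 in SNI spinal cord, against 0.53 and 0.57 in sham spinal cord (difference -0.17, SE 0.0574, adjusted p = 0.418). Rps6kb2 had 5 and 7 footprint reads in SNI spinal cord, against 2 and 6 in sham spinal cord, and was not tested there. DESeq2 likewise called none of the members in DRG footprints and TE or in spinal cord mRNA, footprints and TE.

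The response to SNI was compared between the tissues as the DRG log2 fold change minus that of spinal cord. For mRNA none of the 10 members differed, against 8.4% of the 13557 genes tested with a higher and 8.91% with a lower response in DRG by edgeR. The smallest adjusted p belonged to Rps6kb1 (difference -0.16, SE 0.0578, adjusted p = 0.0506) and Mknk2 (difference 0.19, SE 0.0699, adjusted p = 0.0596), the genes with the largest DRG changes among the 3 that passed there. Rptor was the only other member with an unadjusted p under 0.05 (difference -0.13, SE 0.0572, adjusted p = 0.117), a threshold that 29.4% of all genes tested met. For footprints none of the 9 members tested differed (4.04% of 11510 genes higher and 4.65% lower by edgeR), and only Tsc2, with 20.1% of all genes tested, had an unadjusted p under 0.05 (difference 0.14, SE 0.0593, adjusted p = 0.147). For TE none of the 9 differed (0.556% of 11332 genes higher and 0.521% lower by edgeR), and only Rptor, with 11.3% of all genes tested, had an unadjusted p under 0.05 (difference 0.20, SE 0.09, adjusted p = 0.363). The changes of Mknk2, Rheb and Rps6kb1 in DRG mRNA were therefore not shown to be particular to DRG.

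Between the uninjured tissues the members differed far more than with surgery. In mRNA, 3 members were higher and 5 lower in sham DRG than in sham spinal cord, where 40.6% of the 13557 genes tested were higher and 42.1% lower. Mknk2 was the member with the largest difference: its mRNA was at 52.5 and 51.2 CPM in sham DRG, against 30.2 and 30.3 CPM in sham spinal cord (log2 fold change 0.78, SE 0.0507, adjusted p = 3.88e-19). Rheb (0.39, SE 0.0291) and Rps6kb1 (0.25, SE 0.0414) were also higher in DRG. Tsc1 was at 56.9 and 59.2 CPM in sham DRG, against 86.5 and 86.2 CPM in sham spinal cord (log2 fold change -0.58, SE 0.0401, adjusted p = 5.36e-18), and Rptor was lower by a similar amount (-0.55, SE 0.041). Tsc2 (-0.41, SE 0.039), Mtor (-0.39, SE 0.0378) and Mknk1 (-0.34, SE 0.0598) were lower too. The MNK paralogs thus went opposite ways, with Mknk2 reads exceeding those of Mknk1 in sham DRG and not in sham spinal cord. Rictor (-0.04, 95% interval -0.14 to 0.05) and Rps6kb2 (-0.27, SE 0.173, adjusted p = 0.143) did not pass the test, although Rictor was called lower with library sizes alone (-0.11, adjusted p = 0.0303). The tissues differ in cell makeup throughout, and the part of that in these differences was not tested.

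**Figure D4:**
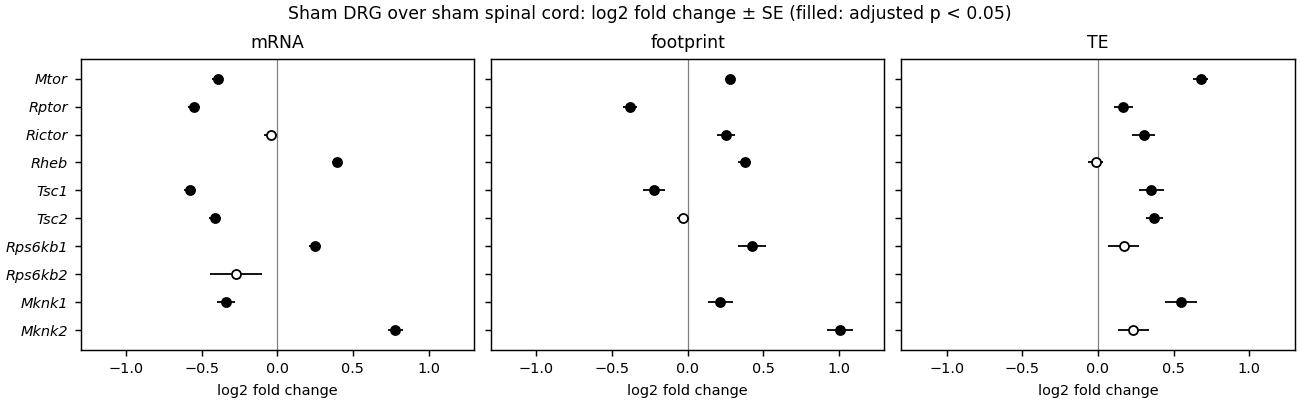
log2 fold change of sham DRG over sham spinal cord for each gene, with bars of 1 SE, for mRNA, footprints and TE. Filled points have an adjusted p under 0.05. Mtor lies left of 0 in mRNA (-0.39) and right of 0 in footprints (0.28) and TE (0.68).

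Footprints gave another picture for several members: 6 of the 9 tested were higher in sham DRG and 2 lower, where 39.4% of the 11510 genes tested were higher and 38.6% lower. Mtor changed sides. Its mRNA was at 69.0 and 65.1 CPM in sham DRG, against 88.3 and 88.2 CPM in sham spinal cord, whereas its footprints were higher in DRG (log2 fold change 0.28, SE 0.0318, adjusted p = 2.68e-10). Mknk1 did the same by a smaller margin (footprints 0.22, SE 0.0847, adjusted p = 0.0195), a call that was lost with DESeq2 (adjusted p = 0.174) and with library sizes alone (adjusted p = 0.207). Mknk2 footprints were higher by 1.01 (SE 0.0865) and those of Rps6kb1 by 0.43 (SE 0.091). Those of Rheb were higher by 0.38 (SE 0.0424) and those of Rictor by 0.25 (SE 0.0594). A fixed coefficient of variation of 0.1 ended the footprint calls of Mtor (adjusted p = 0.0911) and Rictor (adjusted p = 0.14), and those of Mknk1 and Tsc1. Rptor (-0.38, SE 0.0465) and Tsc1 (-0.22, SE 0.0724) were lower, the second of these not with DESeq2 (adjusted p = 0.0783). Tsc2 did not pass (-0.03, 95% interval -0.12 to 0.05) but was called lower with library sizes alone (adjusted p = 0.00455), a scaling that moved the median of all genes by -0.10.

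TE was higher in sham DRG than in sham spinal cord for 6 of the 9 members tested and lower for none, where 24.6% of the 11332 genes tested were higher and 21.2% lower. Mtor had the largest difference: its log2 TE, scaled over all 8 libraries of each assay, was 1.87 and 1.96 in sham DRG, against 1.23 and 1.25 in sham spinal cord (difference 0.68, SE 0.0501, adjusted p = 7.1e-21). Mknk1 followed (0.55, SE 0.106, adjusted p = 9.99e-06), then Tsc2 (0.37, SE 0.0566, adjusted p = 4.01e-08), Tsc1 (0.35, SE 0.0834, adjusted p = 0.000287) and Rictor (0.30, SE 0.078, adjusted p = 0.000845). Rptor was the weakest of the 6 (0.17, SE 0.0644, adjusted p = 0.0263), and its call was lost with DESeq2 (adjusted p = 0.317), as was that of Rictor (adjusted p = 0.0872). Mknk2 (0.23, SE 0.102, adjusted p = 0.0548), Rps6kb1 (0.17, SE 0.104, adjusted p = 0.178) and Rheb (-0.02, SE 0.0507, adjusted p = 0.829) did not pass. With a fixed coefficient of variation of 0.1, only Mtor kept its TE call among the 9. The median TE difference of the 9 members was 0.30, against 0.02 over all genes tested.

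**Figure D5:**
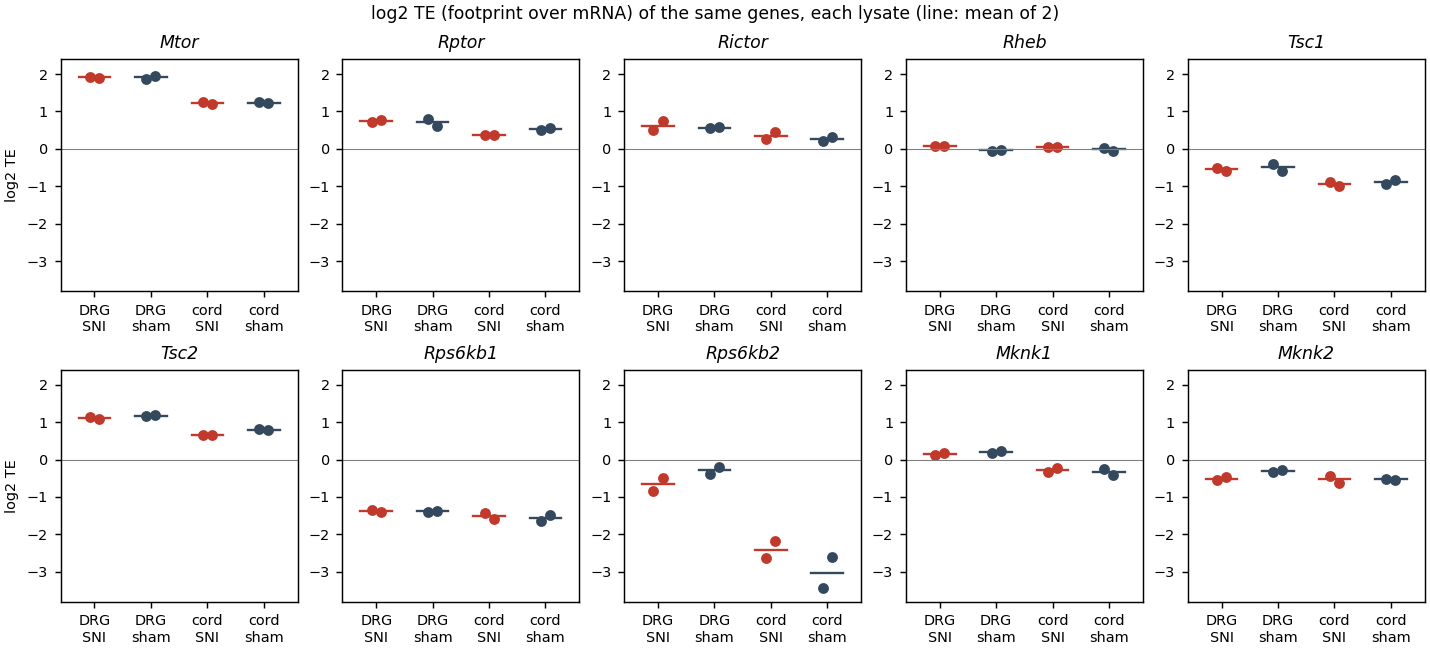
log2 TE of each gene in each lysate, scaled over the 8 libraries of each assay; points are lysates, lines are the mean of 2, red is SNI and dark blue is sham. In Mtor all 4 DRG lysates lie above all 4 spinal cord lysates, and SNI and sham lysates of a tissue lie close together.

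Among themselves the members spanned a wide range of TE. Mtor was near the top of all protein-coding genes, at the percentiles 98.9, 98.9, 98.8 and 99.0 in SNI and then sham DRG lysates, of 12393 genes, and Tsc2 stood at 93.3 to 94.3 in the same lysates. Rps6kb1 was near the bottom, at the percentiles 9.83, 8.81, 9.17 and 9.75 in SNI and then sham DRG lysates. Rheb stood in the middle, at 55.4 to 61.0. TE here compares footprints, which fall in coding sequence, with mRNA reads over all exons, and the coding share of the exons differed: it was 75.6% in Mtor and 56.4% in Tsc2, against 18.2% in Rps6kb1 and 7.15% in Rheb. Per length in sham DRG, Rheb was at 278 footprint CPM per coding kilobase and 20.3 mRNA CPM per exon kilobase. Mtor was at 33.1 and 6.64. By these values Rheb had more footprints for its mRNA than Mtor, the reverse of their order by TE. The part of the coding share in the order of TE was not tested. That share is the same for a gene in both groups of a comparison unless transcript ends differ.

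The genes whose mRNA profile lay closest to that of Mtor, by the root mean square difference of centred log2 CPM over the 8 mRNA libraries among 12760 protein-coding genes, were Pde4d (0.0237), Actr10 (0.0242) and Slc25a36 (0.0247). For Mknk2 they included Add2 (0.0346) and Wasf2 (0.037). These are descriptions of 8 libraries of which each tissue gave 4.

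Other genes of the pathway were taken from 8 lists with 85 genes, of which 83 were found by symbol. In DRG mRNA, 19 of the 81 tested rose and 18 fell after SNI, and their median change was 0.03 on the log2 scale. Among all genes tested 15.9% rose and 17% fell, the background against which these counts and those of the single lists stand. These calls were from edgeR, and the alternatives are not given for single genes of the lists. Over all genes, DESeq2 called 928 higher and 1176 lower in DRG mRNA. The Rag GTPases and Ragulator, which bring mTORC1 to the lysosome, had 4 of 9 members lower and none higher, with a list median of -0.12. Lamtor2 (-0.20), Lamtor5 (-0.16) and Lamtor4 (-0.14) had the largest changes. In DRG footprints none of these 9 genes was called (median -0.03), and in DRG TE 2 of the 9 were higher and none lower. The MAP kinase pathway genes listed with MNK split, 4 of 10 rising and 3 falling. Rps6ka1, which encodes a ribosomal S6 kinase downstream of ERK, rose (0.42), whereas its relative Rps6ka3 (-0.21) and Braf (-0.16) fell. Of the 18 PI3K, AKT and AMPK genes 5 rose and 4 fell, led by the AMPK subunit gene Prkab1 (0.43), by Irs2 (0.21), which encodes an insulin receptor adaptor, and by Akt1 (0.20). Among the 7 accessory subunits of the mTOR complexes tested, Telo2 (0.28) and Akt1s1 (0.19), which encodes the mTORC1 inhibitor PRAS40, rose and none fell. Of the 15 GATOR, KICSTOR and nutrient sensor genes tested 2 rose and 2 fell, including the leucine sensor gene Sesn2 (0.47) and Depdc5 (-0.14).

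The genes downstream of mTOR and MNK changed in both directions as well. Among 11 S6 kinase and mTOR substrates, 3 rose and 3 fell in DRG mRNA. Rps6, the ribosomal protein that gives the S6 kinases their name, rose by 0.64 (SE 0.177), a value that is uncertain because its reads can be shared with near-identical pseudogenes, and Grb10, an adaptor that mTORC1 phosphorylates, rose by 0.33 (SE 0.037). Pdcd4, which encodes an inhibitor of eIF4A, fell by 0.14. Of the 9 eIF4F and 4E-BP genes tested, 3 rose and 2 fell in mRNA: Eif4g3 (-0.24), Eif4ebp2 (0.18) and Eif4g1 (0.08) had the largest changes. In DRG footprints 6 of 81 pathway genes rose and 6 fell, near the 8.4% and 8.28% of all genes, with Grb10 (0.39, SE 0.052, adjusted p = 3.84e-10) and Irs2 (0.18) higher and Eif4g3 (-0.15) lower. In DRG TE 6 of 81 rose and 1 fell, against 4.22% and 3.21% of all genes. Eif4e, the target of the MNK kinases, was higher in TE by 0.38 (SE 0.123, adjusted p = 0.0325). The repressor gene Eif4ebp2 was lower in TE by 0.47 on the log2 scale (-0.47, SE 0.14, adjusted p = 0.0204) while its mRNA was higher. Both calls were from edgeR. Of the 12710 genes tested in DRG TE, limma on log2 TE called none and DESeq2 called 56 higher and 30 lower. Of the 9 eIF4F and 4E-BP genes tested in DRG footprints, 1 was called, Eif4g3. The Eif4ebp2 TE response was lower in DRG than in spinal cord by edgeR (difference -0.76, SE 0.194, adjusted p = 0.0213). That comparison used the same DRG libraries, so it is not a separate result. In spinal cord TE none of the 7 eIF4F and 4E-BP genes tested was called. DESeq2 called 9 genes higher and 6 lower in the TE response, and its result for Eif4ebp2 is not given.

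In spinal cord 2 of 82 pathway genes tested changed in mRNA, and both rose, near the 2.09% of all genes that rose and 1.96% that fell. Sgk1, a kinase gene whose product mTORC2 activates, rose by 0.49 (SE 0.033, adjusted p = 1.8e-18) in mRNA and by 0.54 (SE 0.042, adjusted p = 3.13e-09) in footprints. Ddit4, which encodes the mTORC1 inhibitor REDD1, rose by 0.24 (SE 0.038, adjusted p = 7.91e-06) in mRNA. Sgk1 was the only one of the 78 pathway genes tested that changed in spinal cord footprints (1.21% of all genes rose and 1.03% fell), and none of the 78 changed in TE by edgeR (0.169% and 0.0843% of all genes). Microglia and macrophage markers summed to 359 and 373 mRNA CPM in SNI spinal cord, against 284 and 284 CPM in sham spinal cord, with 5 of 8 called higher. Oligodendrocyte markers summed to 3214 and 3232 CPM, against 2986 and 3052 CPM (1 of 8 higher). Satellite glia markers summed to 7682 and 7580 CPM, against 8317 and 8162 CPM (3 of 5 lower, 1 higher). Schwann cell markers summed to 865 and 878 CPM, against 959 and 974 CPM (2 of 5 tested lower). Of 6 astrocyte markers 2 fell and 1 rose, and of 6 fibroblast markers 1 went each way. Spinal cord neuron and muscle markers had 1 lower each. No sensory neuron, endothelial or erythroid marker was called, and no adipocyte marker was tested. The part of these shifts in the spinal cord values was not tested. The Sgk1 response was lower in DRG than in spinal cord, by a difference of -0.42 (SE 0.069, adjusted p = 1.09e-05) in mRNA.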

How the data were processed

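Ribosome footprints and poly(A)+ mRNA of 8 lysates were sequenced. Per the labels and methods, the authors removed ribosomal and transfer RNA reads, aligned to GRCm38.p5 and counted reads per gene; the processing notes of the submitters name Bowtie 1.1.2, STAR 2.5.2b and HTSeq. The values used are the raw counts per gene that the authors deposited, with no normalisation; no molecular identifiers are described. The deposited RPKM and TE columns were not used, and 0 other columns per sample were left unmapped. Genes under 128 reads summed over the 4 libraries of a tissue and assay were left out, a minimum that follows the study. Counts were tested in R 4.3.3 with the quasi-likelihood test of edgeR 4.0.16, TMM scaling and Benjamini-Hochberg adjustment over all genes tested, at adjusted p under 0.05; TE was the interaction of surgery, or tissue, with assay, with terms for the lysates. log2 TE per lysate added 0.5 reads. The alternatives were DESeq2 1.42.0, limma 3.58.1 on log2 TE, library sizes alone, no filter, a fixed coefficient of variation of 0.1, a replicate block, both tissues in 1 fit, no lysate terms and leaving out each lysate. The tests of SNI over sham were checked on simulated counts with the same coefficient of variation for every gene and no differences between lysates. That check cannot show how the p-values behave at the gene-by-gene spread of these data. Groups were taken from sample titles. The common coefficient of variation that edgeR fitted between pools, beyond counting error, was 0.988% to 4.3%.

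The 10 members, gene lists and marker lists were chosen with earlier results of these data known. All members were named; of the other lists, at most the 3 called genes with the largest change per contrast were named, with the 3 genes nearest to Mtor and to Mknk2 and the injury genes Atf3 and Sprr1a; some genes that this rule selects are not reported here. Gene positions came from GENCODE M21 and promoters from RefSeq.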

Additional observations from a re-analysis of the deposited data

How the results depend on the processing

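Of 836 values of single members recomputed under the alternatives, 804 kept their side of the threshold, 10 newly passed and 22 no longer passed, and no called value changed direction. In DRG mRNA, the members rising were 2 with library sizes alone (Tsc2 added) and 0 at a fixed coefficient of variation of 0.1, and the members falling were 0 with DESeq2 and 0 at that fixed value. In DRG footprints 1 member (Mtor) fell with the replicate block and with both tissues in 1 fit. The mRNA response was higher in DRG for 1 member (Mknk2) with library sizes alone, and the footprint response for 1 member (Tsc2) with no filter. For sham DRG over sham spinal cord at the fixed value of 0.1, footprints held 3 members higher and 1 lower and TE held 1 higher (Mtor). DESeq2 held 1 lower in footprints. The labels do not say whether a replicate number stands for anything shared between groups. Deviations of same-numbered SNI and sham samples correlated by 0.05 (DRG mRNA), 0.19 (DRG footprints), 0.00 and -0.03 (spinal cord). The replicate block moved DRG mRNA calls to 2407 higher and 2552 lower, and DRG footprint calls to 1250 and 1282. With that block Mtor passed in DRG mRNA (adjusted p = 0.0465) and footprints (adjusted p = 0.0115). Over all genes the calls (higher and lower) shrank with DESeq2 to 928 and 1176 in DRG mRNA, 349 and 376 in DRG footprints (edgeR 1095 and 1080), 56 and 30 in DRG TE (536 and 408), 39 and 18 in spinal cord mRNA (308 and 289), 67 and 24 in spinal cord footprints (145 and 124), 11 and 2 in spinal cord TE (20 and 10), 375 and 557 in the mRNA response (1139 and 1208), 156 and 180 in the footprint response (465 and 535), 9 and 6 in the TE response (63 and 59) and 1384 and 1682 in TE between sham tissues (2787 and 2398). At the fixed value of 0.1 they were 186 and 81 in DRG mRNA, 149 and 45 in DRG footprints, 9 and 9 in DRG TE and 318 and 325 in TE between sham tissues. Limma on log2 TE called 0 genes in both tissues (1604 in DRG and 765 in spinal cord at an unadjusted p under 0.05). With no filter the footprint response gave 661 and 284, the TE response 91 and 38 and spinal cord footprints 218 and 190. The footprint response gave 571 and 416 with library sizes alone, and spinal cord mRNA 336 and 503 with both tissues in 1 fit. The replicate block gave 494 and 511 in spinal cord mRNA, 196 and 204 in its footprints and 29 and 21 in its TE. Leaving out a lysate gave 1650 to 1994 higher and 1818 to 2169 lower in DRG mRNA, 594 to 960 and 584 to 889 in DRG footprints, 211 to 324 higher and at most 262 lower in DRG TE, 92 to 141 and 59 to 124 in spinal cord footprints, 14 to 29 and 12 to 16 in spinal cord TE, and 81 to 501 higher and 58 to 526 lower in spinal cord mRNA. Rps6kb2 was limited by depth, with 294 mRNA reads over the 4 DRG libraries.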

Other observations

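In mRNA, 39 of 81 other pathway genes were higher and 29 lower in sham DRG than in sham spinal cord by edgeR, where 40.6% and 42.1% of all genes were. Mapk3, which encodes the ERK1 kinase upstream of MNK, was higher by 2.68 on the log2 scale (SE 0.024), Deptor, which encodes an mTOR inhibitor, by 2.03 (SE 0.031) and Eif4ebp1 by 2.15 (SE 0.185). Rhebl1, a relative of Rheb, was higher by 2.43 (SE 0.086). Sgk1 (-1.99, SE 0.047), Sesn2 (-2.05, SE 0.096) and Rragb (-1.90, SE 0.047), a Rag GTPase gene, were lower. In TE, 24 of 77 were higher and 14 lower, where 24.6% and 21.2% of all genes were. Of the MAP kinase pathway genes listed with MNK 5 of 10 were higher in TE and none lower, with Mapk14, the p38 alpha gene, at 0.56 (SE 0.076). Of the S6 kinase and mTOR substrates 1 of 10 was higher in TE and 5 lower.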
